A study of Mus musculus with 7 samples.

Results

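The NMDA receptor subunits were followed through the PFC of mice carrying the 2 alleles of PAXIP1-AS1. They are the 6 protein-coding genes listed in the deposited table as Grin1, Grin2a, Grin2b, Grin2c, Grin2d and Grin3a, taken by name from 55416 genes, of which 21885 are protein-coding. All 6 had enough counts to be tested, among 17254 tested genes. The 7 libraries came from female wild-type C57BL/6 mice whose PFC was injected on both sides with rAAV under the human synapsin promoter, which is active in neurons, with EGFP as a marker in every group. Ctr mice received the empty vector (n = 3), Ref mice the vector with PAXIP1-AS1 carrying the reference C allele (n = 2) and Alt mice the vector with the alternative G allele (n = 2). The age of the sequenced mice was not given in the sources used here. RNA was taken from tissue, so cells without virus and cells that are not neurons were measured together with the transduced neurons. The labels do not state whether each library is 1 animal, and p-values measure the spread between these libraries.

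NMDA receptors are glutamate-gated cation channels that admit calcium when glutamate and a co-agonist, glycine or D-serine, are bound while the membrane is depolarized. A channel contains the GluN1 subunit, which binds the co-agonist, together with GluN2 subunits, which bind glutamate and set the kinetics of the channel, or GluN3 subunits, which bind glycine and lower calcium permeability. In the forebrain GluN2B prevails early in life and GluN2A gains as the cortex matures, and the receptors are known for their part in synaptic plasticity.

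Total counts were 19382848 to 20750857 in Ctr, 19731791 and 19801971 in Ref, and 16655697 and 18673575 in Alt, the shallowest group. The 2 Alt libraries differed from each other more than other replicates did, where the chi-square of their counts over the tested genes, divided by its degrees of freedom, was 58.05 against 18.59 to 25.04 for pairs within Ctr and Ref. The excitatory marker Slc17a7 was at 1127 to 1560 CPM, the interneuron marker Gad1 at 86.6 to 163, the oligodendrocyte marker Mbp at 523 to 1381 and the astrocyte marker Aqp4 at 158 to 254, so each of these cell classes was present in every library. The cerebellar granule cell gene Gabra6 was at or below 0.197 CPM.

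Levels were compared between subunits as CPM per kilobase of the gene length in the table, where CPM are counts scaled to the TMM-normalized library total. Grin1, which encodes the obligatory GluN1, stood highest in 6 of 7 libraries. Its level was 24.5 ± 5.43 CPM per kilobase in Ctr (SD, n = 3), 29.6 ± 2.66 in Ref (n = 2) and 29.1 ± 1.19 in Alt (n = 2). Grin2b followed, and in Alt replicate 1 it passed Grin1, with 49.1 against 28.2 CPM per kilobase. Grin2a and Grin2c were close neighbours in this order, at 9.76 to 11.4 and 10.5 to 11.8 CPM per kilobase in Ctr, so that their ranges overlapped. Grin3a stood below these 4 in every library, at 3.97 ± 0.279 CPM per kilobase in Ctr. Grin2d was lowest in every library, at 0.938 ± 0.210 CPM per kilobase in Ctr. The remaining subunit gene, Grin3b, had between 0 and 7 counts in a library and was not tested. In the plot of length-scaled levels by library the Alt points of Grin2a, Grin2b and Grin3a lie above the points of both other groups.

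**Figure D1:**
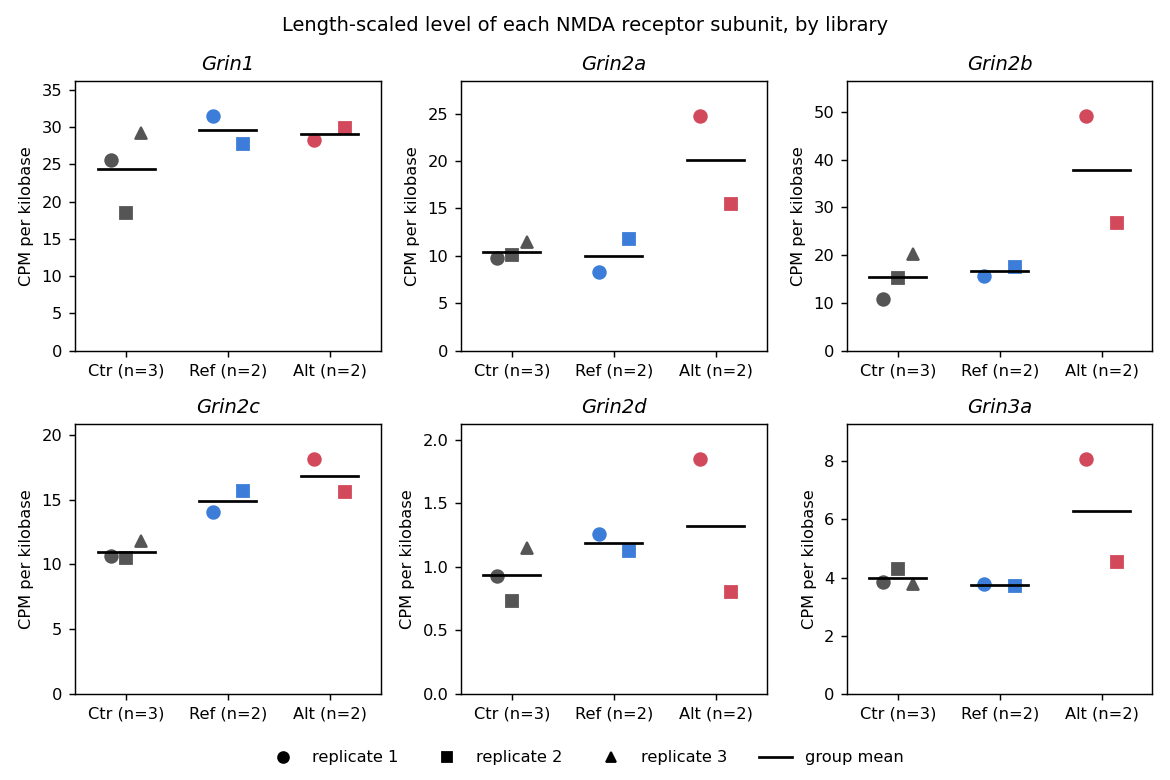
Length-scaled level of the 6 subunits in each library (vertical axes, CPM per kilobase from 0, scaled separately for each gene) by group (horizontal axes), with replicates as symbols and the group mean as a line. Grin2b reached 49.1 in Alt replicate 1 and 26.7 in Alt replicate 2, against at most 20.2 in Ctr and 17.5 in Ref.

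Summed over the 6 subunits, the length-scaled level was 59.4 to 77.5 CPM per kilobase in Ctr, 74.5 and 77.5 in Ref, and 130.1 and 93.0 in Alt. Grin2b made up 17.6% to 26.0% of this sum in Ctr, 21.0% and 22.6% in Ref, and 37.7% and 28.7% in Alt. The share of Grin1 was 31.2% to 41.6% in Ctr, 42.2% and 35.7% in Ref, and 21.7% and 32.2% in Alt. The Alt libraries thus held the highest Grin2b shares, while the Grin1 share of Alt replicate 2 lay within the range of Ctr.

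The comparison of Alt with Ctr asks how the G allele vector differs from the empty vector. By edgeR's quasi-likelihood test on the counts of all genes, 4 of the 6 subunits, Grin2a, Grin2b, Grin2c and Grin3a, were higher in Alt at an unadjusted p under 0.05. Among all tested genes 19.8% passed this limit in either direction, 9.45% higher and 10.3% lower. After Benjamini-Hochberg adjustment over all 17254 genes 0 of 6 passed an adjusted p of 0.05 in edgeR, as did 0% of all genes, and the smallest adjusted p of any gene was 0.120. DESeq2 on the same genes gave 4 of 6 at an adjusted p under 0.05, and 1097 of all 17254 genes. In bulk tissue, fewer cells of a type and less RNA per cell cannot be told apart.

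Grin2b, which encodes GluN2B, had the largest difference among the members. Its counts were 5420, 7678 and 10779 in Ctr, 8026 and 8426 in Ref, and 18749 and 11902 in Alt. On the CPM scale these are 269, 378 and 501 in Ctr, 388 and 436 in Ref, and 1219 and 664 in Alt. Both Alt libraries lay above every other library, and in CPM they differed from each other by more than the whole range of Ctr. This did not hold on the log2 scale. Relative to the Ctr mean, Alt was at 1.72 and 0.84 there, and Ctr ranged from -0.46 to 0.43. The log2FC of Grin2b for Alt versus Ctr was 1.30 with an SE of 0.27 (2.46-fold; edgeR unadjusted p = 0.000407, adjusted p = 0.120). Without Alt replicate 1 the log2FC was 0.80 (edgeR unadjusted p = 0.00396).

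Grin2a encodes GluN2A, the subunit that gains in the maturing cortex. It was at 175, 182 and 205 CPM in Ctr, 149 and 211 in Ref, and 443 and 277 in Alt. Both Alt libraries were higher than all others. The log2FC of Alt versus Ctr was 0.94 with an SE of 0.21 (1.92-fold; edgeR unadjusted p = 0.000745, adjusted p = 0.120). Without Alt replicate 1 the log2FC was 0.57 (edgeR unadjusted p = 0.0103).

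Grin2c encodes GluN2C, a subunit best known from cerebellar granule cells and also found in forebrain astrocytes. It was at 53.5, 52.9 and 59.3 CPM in Ctr, 71.0 and 79.0 in Ref, and 91.2 and 78.6 in Alt. Here the Ref libraries stood with the Alt libraries, and neither overlapped Ctr. The log2FC of Alt versus Ctr was 0.62 with an SE of 0.15 (1.54-fold; edgeR unadjusted p = 0.00155, adjusted p = 0.120).

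Grin3a encodes GluN3A, which lowers the calcium permeability of the channel. It was at 47.1, 52.7 and 46.5 CPM in Ctr, 46.3 and 45.5 in Ref, and 98.9 and 55.5 in Alt. Alt replicate 1 stood well apart, and Alt replicate 2 was only just above the highest Ctr library. The log2FC of Alt versus Ctr was 0.66 with an SE of 0.21 (1.58-fold; edgeR unadjusted p = 0.00938, adjusted p = 0.143). Without Alt replicate 1 it was 0.19 (edgeR unadjusted p = 0.330), which ends the call, and without Alt replicate 2 it was 1.02.

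Grin1 and Grin2d did not pass the test. Grin1 was at 248, 180 and 283 CPM in Ctr, 305 and 269 in Ref, and 274 and 290 in Alt, and the groups overlapped. Its log2FC of Alt versus Ctr was 0.25, with a 95% interval from -0.16 to 0.66 (edgeR unadjusted p = 0.205), and it was 0.087 without Ctr replicate 2 and 0.40 without Ctr replicate 3. Grin2d encodes GluN2D, which in the forebrain is found chiefly in interneurons. It was at 6.21, 4.87 and 7.66 CPM in Ctr, 8.37 and 7.50 in Ref, and 12.3 and 5.35 in Alt, so that the Alt libraries were on either side of all Ref libraries. The log2FC of Alt versus Ctr was 0.49, with a 95% interval from -0.29 to 1.28, and it turned to -0.22 without Alt replicate 1 (edgeR unadjusted p = 0.197 and 0.557). Without Alt replicate 2 it was 0.97 (edgeR unadjusted p = 0.00947).

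**Figure D2:**
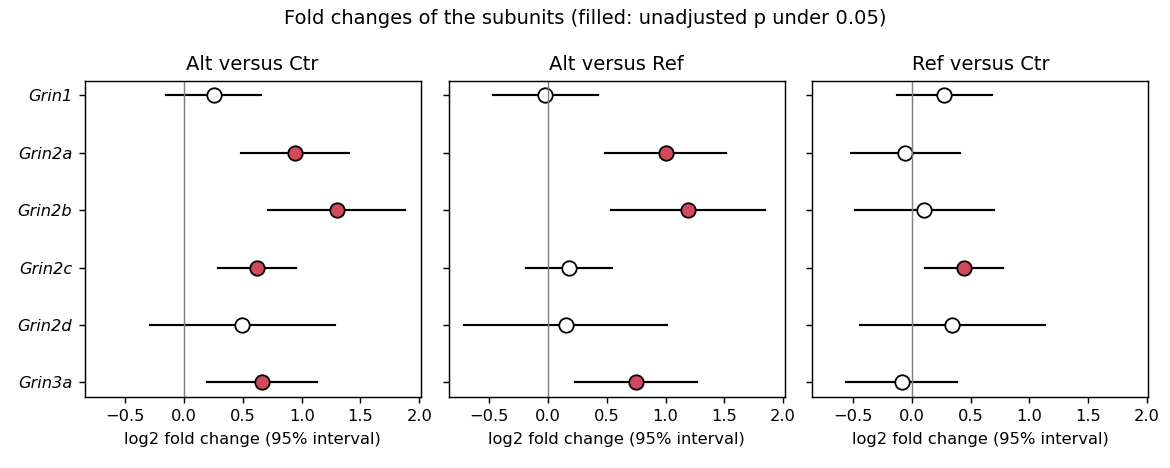
Log2 fold change of each subunit (points) with its 95% interval (lines) in the 3 comparisons from 1 edgeR fit, with filled points for an unadjusted p under 0.05. Filled points number 4 in the left panel, 3 in the middle panel and 1, Grin2c, in the right panel.

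The comparison of Alt with Ref sets the alleles side by side and shares its Alt libraries with the comparison above. In this contrast 3 of 6 subunits, Grin2a, Grin2b and Grin3a, were higher in Alt at an unadjusted p under 0.05, where 15.5% of all tested genes passed in either direction, 6.71% higher and 8.83% lower. The log2FC was 1.19 ± 0.30 (SE) for Grin2b, 1.00 ± 0.23 for Grin2a and 0.75 ± 0.24 for Grin3a. For these genes the edgeR adjusted p was 0.229, 0.229 and 0.236, and 0 of 6 passed 0.05, beside 0.0058% of all genes. Without Alt replicate 1 the values were 0.70, 0.63 and 0.29, and Grin3a no longer passed. Grin2c differed by 0.18 between the alleles, with a 95% interval from -0.19 to 0.55, and by 0.080 to 0.29 with a library left out. After the correction for GC content it differed by 0.65 and passed (edgeR unadjusted p = 0.0107). Grin1 differed by -0.03, with an interval from -0.47 to 0.42, a direction that turned under several settings given in the closing section. Grin2d differed by 0.15, with an interval from -0.72 to 1.01, and turned to -0.56 without Alt replicate 1.

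Between Ref and Ctr, 1 of 6 subunits passed an unadjusted p under 0.05, against 3.14% of all tested genes in either direction, 2.19% higher and 0.945% lower. This was Grin2c, with a log2FC of 0.44 ± 0.15 (SE; edgeR unadjusted p = 0.0135, adjusted p = 1). The call was lost without Ref replicate 2 and after a correction for GC content, where the log2FC was 0.35 and 0.25. For Grin2a and Grin2b the log2FC of Ref versus Ctr was -0.06 and 0.11, with intervals from -0.52 to 0.41 and from -0.48 to 0.70, and neither direction held with each library left out, where Grin2a was from -0.34 to 0.18 and Grin2b from -0.093 to 0.35. The groups were also entered in edgeR as a numeric score of 0, 1 and 2. This differs from the study's model, which was DESeq2 with an ordered category. With the score, 4 of 6 subunits were higher per step at an unadjusted p under 0.05. Of all genes 16.7% passed, 8.85% higher and 7.89% lower.

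Libraries of Alt and Ctr did not overlap in CPM for Grin2a, Grin2b, Grin2c and Grin3a, as for 35% of all tested genes, 16.8% higher in Alt and 18.1% lower. Libraries of Alt and Ref did not overlap for Grin2a, Grin2b and Grin3a, as for 47.7% of all genes, 21.6% higher in Alt and 26.1% lower. Libraries of Ref and Ctr did not overlap for Grin2c and Grin3a, as for 22.9% of all genes, 12.4% higher in Ref and 10.5% lower. With groups of 2 and 3 a lack of overlap is therefore common across the table.

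Gene length moved with these differences. In the table Grin2b is 24842 bases long, Grin2a 17933, Grin3a 12275, Grin1 9700, Grin2d 6658 and Grin2c 5037, and 99.8% of tested genes are no longer than Grin2b. The median log2FC of Alt versus Ctr over all tested genes was -0.37 in the shortest and 0.27 in the longest of 5 length classes of equal size. Between Ref and Ctr these medians were -0.0046 and 0.03. Of the 192 tested genes at least as long as Grin2a, 125 (65.1%) were higher in Alt than in Ctr at an unadjusted p under 0.05, 94 (49%) were higher in Alt than in Ref, and 5 (2.6%) were higher in Ref than in Ctr. Without Alt replicate 1 these counts were 42 of 192 against Ctr and 13 against Ref, and 14 were higher in Ref than in Ctr, a count that ranged from 0, without Ctr replicate 1 or Ref replicate 2, to 14, without Alt replicate 1 or Alt replicate 2. Without Ref replicate 1 the count for Alt against Ref was 20 of 195, and it was 143 of 195 without Alt replicate 2.

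**Figure D3:**
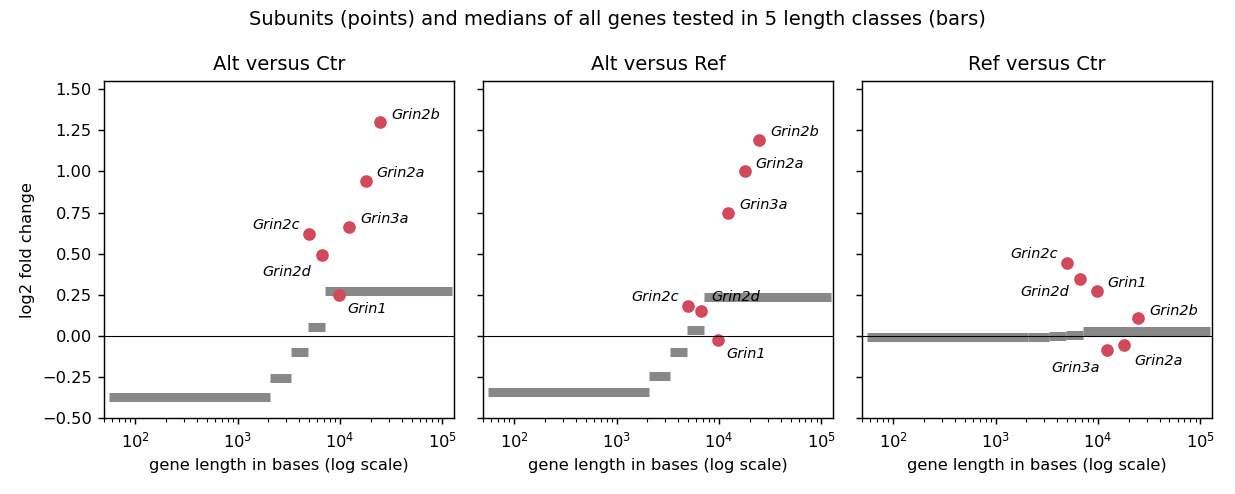
Log2 fold change (vertical axes) against gene length in bases (horizontal axes, log scale) for the 6 subunits (points) and the median of all tested genes in each of 5 length classes (bars) in the 3 comparisons. The bars climb from -0.37 to 0.27 for Alt versus Ctr, and Grin2b, the longest subunit, lies highest at 1.30.

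After a loess correction of each library for gene length, 3 of 6 subunits kept an unadjusted p under 0.05 for Alt versus Ctr, and 16.4% of all genes passed. The log2FC was then 0.67 for Grin2b, 0.62 for Grin2c and 0.42 for Grin2a (edgeR unadjusted p = 0.000725, 0.000691 and 0.00982). Grin3a no longer passed, with a log2FC of 0.29 (edgeR unadjusted p = 0.113), and Grin1 was at 0.02. The values of Grin2b, Grin2a and Grin3a thus moved by more than 1.5 times, while that of Grin2c, the shortest subunit, stayed at 0.62. For Alt versus Ref, Grin2a, Grin2b and Grin3a passed after the correction, where 13% of all genes passed and 7.43% were higher, with a log2FC of 0.63 for Grin2b, 0.57 for Grin2a and 0.45 for Grin3a. With a correction for GC content in its place all 6 subunits passed for Alt versus Ctr, with 21.2% of all genes, and Grin1 was then at 0.50 (edgeR unadjusted p = 0.00704).

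**Figure D4:**
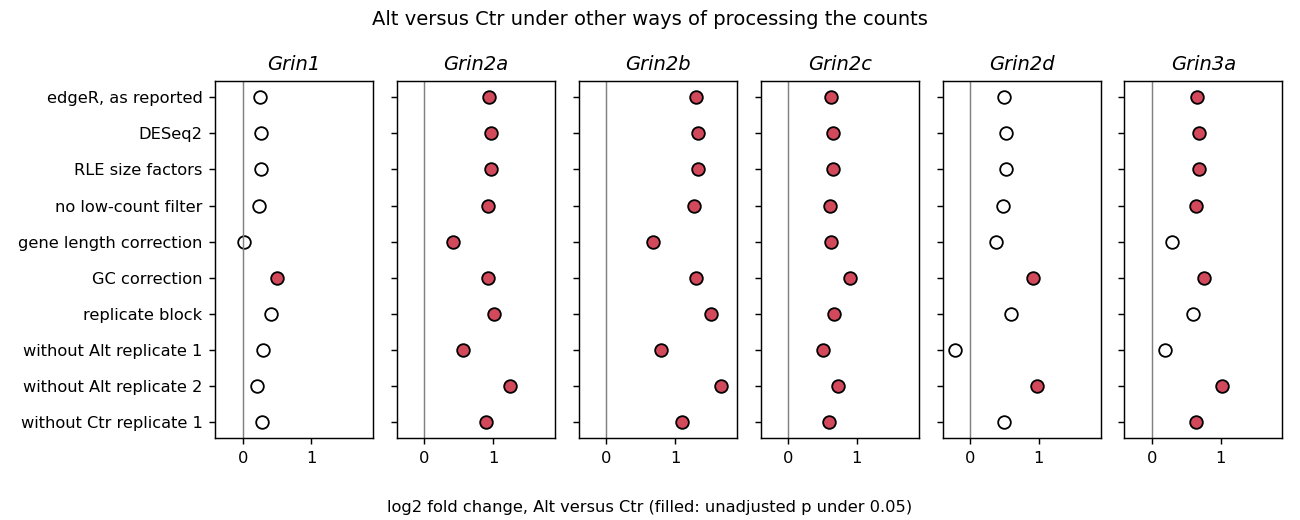
Log2 fold change of Alt versus Ctr for the 6 subunits (columns, horizontal axes) under 10 settings (rows), with filled points for an unadjusted p under 0.05. Grin2a, Grin2b and Grin2c are filled in every row, Grin3a is open after the length correction, with the replicate block and without Alt replicate 1, and Grin2d lies below 0 without Alt replicate 1.

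Ratios between subunits do not depend on the scaling of a library, but they change with the correction for gene length. The log2 ratio of Grin2a to Grin2b, which tracks the developmental exchange of these subunits, was -0.15, -0.59 and -0.82 in Ctr, -0.91 and -0.58 in Ref, and -0.99 and -0.79 in Alt. Grin2b was thus above Grin2a per length in every library, and the groups overlapped. The mean of Alt minus that of Ctr was -0.37, or -0.19 without Ctr replicate 1, with an exact permutation p of 0.371 over the 3 groups (0.478 after Benjamini-Hochberg adjustment over 9 ratios). The smallest p that the 210 arrangements allow is 0.00952, while Alt against Ctr alone cannot go below 0.1 and Alt against Ref cannot go below 0.333.

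The log2 ratio of Grin2b to Grin1 was -1.24, -0.29 and -0.54 in Ctr, -1.01 and -0.66 in Ref, and 0.80 and -0.16 in Alt. Both Alt libraries lay above all others, Alt replicate 2 by a narrow margin that was lost after the length correction, where it was at -0.23 and Ctr replicate 2 at -0.21. The mean of Alt minus that of Ctr was 1.00, and it was 0.65 after the length correction and 0.52 without Alt replicate 1. The exact permutation p over the 3 groups was 0.124 (adjusted p = 0.3). For the sum of the Grin2 genes over Grin1 the mean of Alt exceeded that of Ctr by 0.71 (exact permutation p = 0.210, adjusted p = 0.377), and by 0.33 without Alt replicate 1 and 1.09 without Alt replicate 2. The ratio of Grin2a to Grin1 differed between Alt and Ctr by 0.63, by 0.25 without Alt replicate 1 and by 1.02 without Alt replicate 2. On the log2 scale this ratio was -0.19 and -0.95 in Alt and -1.39 to -0.87 in Ctr. After the length correction it was -0.49 and -1.01 in Alt and -1.34 to -0.83 in Ctr. The ratios of Grin2c, Grin2d and Grin3a to Grin1 differed between Alt and Ctr by 0.34, 0.13 and 0.33. The differences were 0.19, -0.51 and -0.13 without Alt replicate 1, and 0.49, 0.77 and 0.79 without Alt replicate 2. In Alt the length correction moved the log2 ratio of Grin2c from -0.64 and -0.94 to -0.35 and -0.90. It moved that of Grin2d from -3.93 and -5.22 to -3.78 and -5.18, and that of Grin3a down from -1.81 and -2.72 to -1.92 and -2.75. The exact permutation p over the 3 groups was from 0.133 to 0.810 for these 4 ratios.

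The ratio of Grin2c and Grin2d together to Grin2a and Grin2b together separated all 3 groups. On the log2 scale it was -0.83, -1.17 and -1.29 in Ctr, -0.64 and -0.80 in Ref, and -1.89 and -1.36 in Alt. Ref was thus highest and Alt lowest. The exact permutation p over the 3 groups was 0.0286, and 0.257 after adjustment over the 9 ratios. With the levels corrected for gene length the mean of Alt was 0.020 above that of Ctr, while the mean of Alt was 0.38 below that of Ref, so Alt was below Ref but not below Ctr on that scale. With each library left out in turn the mean of Alt minus that of Ctr was between -0.79 and -0.26, the latter without Alt replicate 1.

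**Figure D5:**
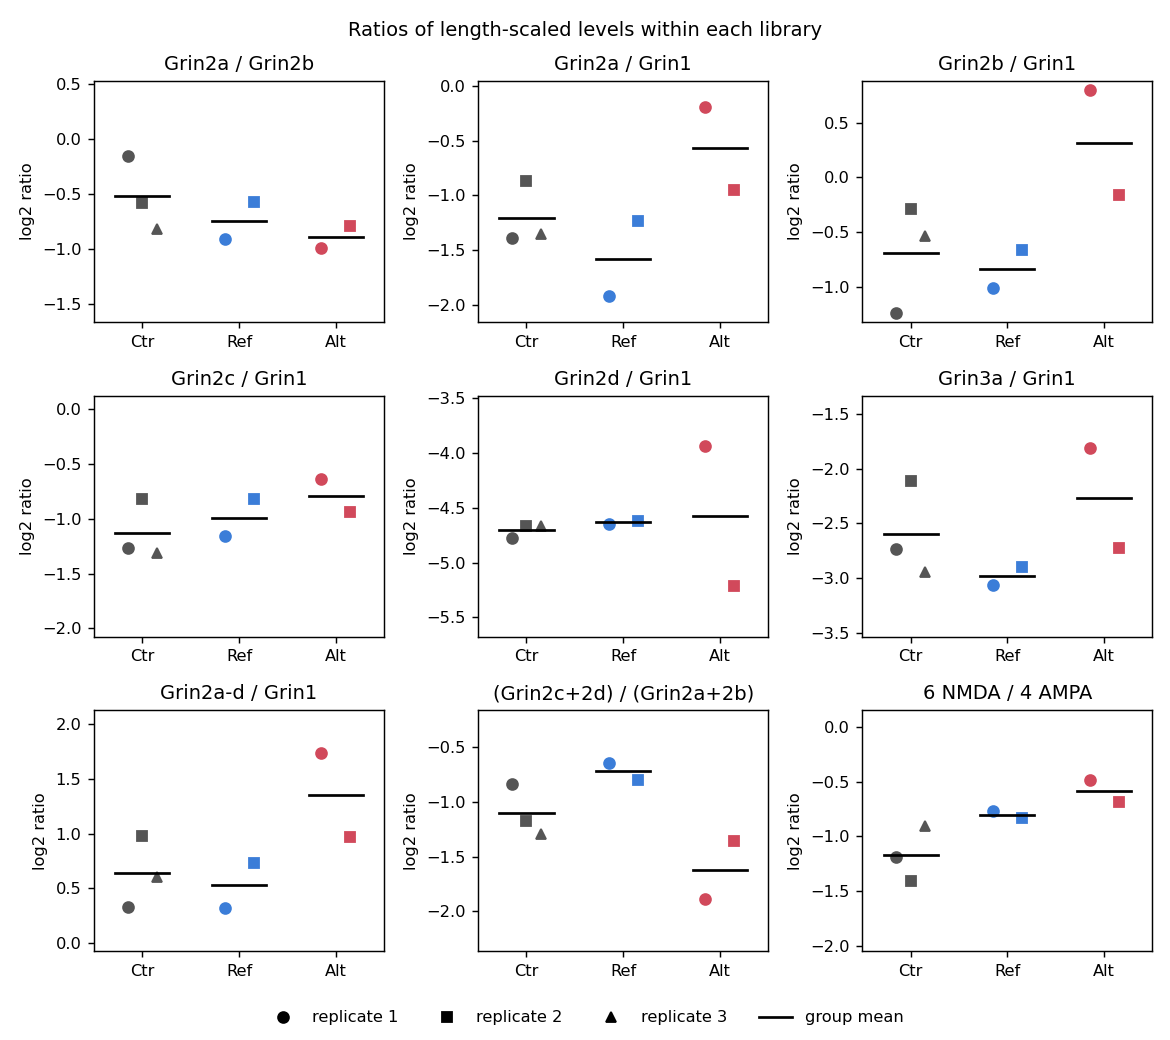
Log2 ratios of length-scaled levels (vertical axes, each spanning the same range) in each library by group, with replicates as symbols and the group mean as a line. In the ratio of Grin2c and Grin2d to Grin2a and Grin2b the Alt points lie at -1.89 and -1.36, below all Ctr and Ref points, and in Grin2a over Grin2b the groups overlap.

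AMPA receptors carry the fast part of the glutamate response, and their 4 subunit genes Gria1 to Gria4 served as a comparison. Of these, 0 of 4 passed an unadjusted p under 0.05 for Alt versus Ctr, where 19.8% of all genes passed in either direction, with a log2FC from 0.07 for Gria3 to 0.29 for Gria1. The direction of 2 of them turned after the length correction, where Gria2 was at -0.36 (edgeR unadjusted p = 0.0132) and Gria3 at -0.17. Both also turned without Alt replicate 1, at -0.06 and -0.02, and Gria1 was then at 0.08. Only Gria2 passed for Alt versus Ref, where 15.5% of all genes did, with a log2FC of 0.42 (edgeR unadjusted p = 0.0384), and it no longer passed without Alt replicate 1. The summed NMDA subunits over the summed AMPA subunits gave log2 ratios of -1.19, -1.41 and -0.91 in Ctr, -0.77 and -0.83 in Ref, and -0.49 and -0.68 in Alt. The groups did not overlap, with an exact permutation p of 0.105 over the 3 groups (adjusted p = 0.3). After the length correction Alt was at -0.68 and -0.71 and Ref at -0.73 and -0.82.

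Genes that work with the receptor were taken from lists of their known roles. Of 12 tested genes of co-agonist supply, which make, carry or break down glycine, serine and related amino acids, 0 passed an unadjusted p under 0.05 for Alt versus Ctr, where 9.45% of all genes were higher and 10.3% lower. In the fit without Alt replicate 1, 1 of the 12 was higher, the amino acid carrier Slc1a5, as was Dao, a gene at 0 counts in Ctr and 10 in Alt replicate 2 that was too low to be tested with all libraries. In the comparison with Ref, 4 genes of the list were lower in Alt, where 8.83% of all genes were lower. After the length correction 2 were lower, where 13% of all genes passed and 7.43% were higher. The median log2FC of the list for Alt versus Ref was -0.37, and -0.29 without Alt replicate 1. Among the 4 lower genes was Phgdh, the first enzyme of serine synthesis, with a log2FC of -0.77. Ref exceeded Ctr for the same gene by a log2FC of 0.50 (edgeR unadjusted p = 0.0322). Phgdh was at 33.4 and 55.0 CPM in Alt replicates 1 and 2, 82.5 and 68.0 in Ref and 49.6 to 56.7 in Ctr. Of 26 genes that anchor or transport the receptor, Alt exceeded Ctr for 7 and lay under it for 3 at this limit, with a median log2FC of 0.08 against -0.03 over all tested genes. The scaffold gene Shank1 was at 1.04, the transport gene Lin7a at 0.91 and the actin-binding Actn2 at -0.75, and without Alt replicate 1 these were at 0.51, 0.50 and -0.53, where Lin7a and Actn2 no longer passed. After the length correction 4 were higher and 7 lower, where 16.4% of all genes passed and 7.41% were higher. Leaving out Alt replicate 1 left 1 in each direction, where 8.14% of all genes passed and 3.68% were higher.

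Among 28 genes of kinases, phosphatases and calcium signaling, Alt exceeded Ctr for 10 and lay under it for 3, beside 9.45% of all genes higher and 10.3% lower, with a median log2FC of 0.09. The kinase gene Cdk5 was at -0.99, the nitric oxide synthase gene Nos1 at 0.88 and the calmodulin gene Calm2 at -0.75. Without Alt replicate 1 they were at -0.60, 0.63 and -0.39, where Calm2 no longer passed, and after the length correction at -0.76, 0.57 and -0.41. After the length correction 5 were higher and 4 lower, and without Alt replicate 1 the counts were 4 and 1, against the shares of all genes given for the anchoring list under these settings. Of 10 transcription factor genes tied to the subunit genes, 5 were higher and 1 lower, with a median log2FC of 0.28. The activity-dependent factor Npas4 was at -1.55 and Sp4 at 0.82. Between Ref and Ctr Npas4 was at -1.53 (edgeR unadjusted p = 0.00042), and between Alt and Ref at -0.02. Sp4 was at 68.8 and 33.4 CPM in Alt, 23.2 to 31.8 in Ctr and 28.4 to 34.4 in Ref, and without Alt replicate 1 its log2FC was 0.21 (edgeR unadjusted p = 0.389). After the length correction 2 were higher and 1 lower, as without Alt replicate 1.

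Markers of other cell types moved between the groups as well, and their part in the subunit values was not tested. The counts below are at an unadjusted p under 0.05, which 9.45% of all genes passed as higher and 10.3% as lower in Alt versus Ctr, 8.83% as lower in Alt versus Ref and 2.19% as higher in Ref versus Ctr. Of 6 astrocyte markers 1 was higher in Alt than in Ctr, Slc1a2 with a log2FC of 0.86, or 0.49 without Alt replicate 1 and 0.48 after the length correction, which alone was at 3484 to 4827 CPM in Ctr, 4894 to 6469 in Ref and 5964 to 9528 in Alt. The other 5 astrocyte markers summed to 1343 to 1686 CPM in Ctr, 1688 to 1775 in Ref and 1545 to 1656 in Alt, so that the sums of Alt lay within the range of Ctr. Against Ctr, 2 of the 6 were higher in Ref, Aldh1l1 with a log2FC of 0.39 and Gja1 with 0.39. Of 8 interneuron markers 3 were lower in Alt than in Ctr, Sst with a log2FC of -1.15, Pvalb with -0.84 and Vip with -0.60, and their sum was 374 to 431 CPM in Ctr, 379 to 392 in Ref and 299 to 343 in Alt. Of 6 excitatory neuron markers 1 was higher, Slc17a7 with a log2FC of 0.32, and 1 lower, Neurod6 with -0.65, and their sum was 2309 to 2813 CPM in Ctr, 2422 to 2628 in Ref and 2339 to 2704 in Alt. Of 6 oligodendrocyte markers 2 were lower in Alt than in Ctr, Mbp with a log2FC of -0.51 and Mag with -0.38, while 5 were higher in Ref than in Ctr and 5 lower in Alt than in Ref. Their sum was 2207 to 3071 CPM in Ctr, 3716 to 4598 in Ref and 2136 to 2628 in Alt. Of 5 endothelial markers 2 were higher in Alt than in Ctr, Kdr with a log2FC of 0.83 and Flt1 with 0.56, and their sum was 201 to 266 CPM in Ctr, 270.1 to 312 in Ref and 306 to 358 in Alt. Of 4 oligodendrocyte precursor markers 2 were higher, Cspg4 with a log2FC of 1.04 and Pdgfra with 0.43. Of 6 microglia markers 1 was higher, Cx3cr1 with 0.36, and 1 lower, C1qa with -1.09. Of 6 striatal markers and 3 cerebellar or thalamic markers tested, 0 passed in this comparison. Of the markers higher or lower in Alt than in Ctr, Pvalb, Vip, Slc17a7, Neurod6, Mag and Pdgfra no longer passed without Alt replicate 1, where Cldn5, an endothelial marker, passed as higher. After the length correction Pvalb, Vip, Mag, Flt1 and Pdgfra no longer passed, while Gad1 passed as lower and the endothelial Tek as higher.

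The genes whose pattern over the 7 libraries was nearest to each subunit were found by the root mean square difference of mean-centred log2 CPM among tested protein-coding genes, as a description with no test. For Grin2b they were Cntnap5b at 0.13 and Vps13b at 0.13, and for Grin2a they were Gabrg3 at 0.07 and Arfgef3 at 0.07. For Grin3a they were Nfib at 0.05 and Cdc73 at 0.08, and for Grin2c they were St6gal1 at 0.03 and Tmtc2 at 0.06. For Grin1 they were Fbrs at 0.05 and Gpatch11 at 0.06, and for Grin2d they were Klf11 at 0.14 and Dtwd1 at 0.15. Among the subunits themselves the closest pair was Grin2a and Grin3a at 0.22, followed by Grin1 and Grin2c at 0.24 and by Grin2a and Grin2b at 0.26.

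In the table's own coordinates, whose mouse build was not named in the sources used here, Grin1 lies at chr2:25181193-25209199, Grin2a at chr16:9385762-9813424 and Grin2b at chr6:135690231-136150509. Grin2c lies at chr11:115139995-115158069, Grin2d at chr7:45481307-45527802 and Grin3a at chr4:49661611-49845744, and all 6 are on the minus strand. Grin2d overlaps Kdelr1 on the opposite strand, which had 274 to 820 counts in a library, up to 656% of the Grin2d count, and Gm45441, with 6 to 60 counts. On its own strand Grin2d overlaps the small nuclear RNA gene U4, with 0 to 9 counts, at most 9.09% of the Grin2d count. Whether the counting used strand was not stated, so reads of Grin2d and these neighbours cannot be told apart and its values are uncertain. Grin1 overlaps the antisense Grin1os, with 35 to 80 counts, at most 1.61% of the Grin1 count. Genes overlapping Grin2b and Grin3a had at most 0.326% of the count of their subunit.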

How the data were processed

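RNA-seq of mouse PFC gave 7 libraries (3 Ctr, 2 Ref, 2 Alt), grouped by the sample titles. The authors deposited raw counts per gene, with TPM and FPKM values computed from them and from the gene length. The submitters' processing notes name STAR and featureCounts, with versions not given, and the build hg19, although the rows are mouse genes. The RNA was polyadenylated, and the strand setting of the counting was not stated. Counts entered edgeR 4.0.16 (R 4.3.3) with TMM normalization, filterByExpr, glmQLFit and glmQLFTest over all 7 libraries, with Benjamini-Hochberg adjustment over 17254 genes. SEs are the log2FC divided by the square root of F. Ratios used TMM-normalized CPM per kilobase and two-sided exact permutation tests.

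Alternatives were DESeq2 1.42.0, RLE normalization, no low-count filter, loess corrections (span 0.3) for gene length and GC content on log2 CPM with a prior count of 2, TPM for ratios, the replicate number as a block, only the groups compared, and each library left out. The combined length and GC correction, and the list counts and values after the length correction and without Alt replicate 1, were chosen after seeing the data. GC content came from a GRCm38 annotation for 99.8% of tested genes. Tested on simulated data, the fits recovered imposed changes. The length correction missed the first limit set for it there: it removed most of an imposed length trend and left a small part, chiefly in genes of low count, so it was kept and the limit replaced. Library totals of 16655697 to 20750857 counts limit the precision of counting, least for Grin2b and most for Grin2d. The SE also holds the spread between libraries, and for Alt versus Ctr it was 0.27 for Grin2b and 0.15 for Grin2c.

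The members and lists were chosen with earlier results of these data known. Named genes were the members, Grin3b, up to 3 genes of each list with the largest |log2FC| for Alt versus Ctr at an unadjusted p under 0.05, the 2 genes nearest to each member, genes overlapping a member, and Slc17a7, Gad1, Mbp and Aqp4. Phgdh, Gria1, Gria2, Gria3, Gabra6, Aldh1l1, Gja1, Slc1a5, Dao, Cldn5 and Tek were named after their values were seen. One gene that this rule names is not reported here. The transcript carried by the vector was not analysed here.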

Additional observations from a re-analysis of the deposited data

How the results depend on the processing

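At an adjusted p under 0.05 the count of subunits for Alt versus Ctr was 0 in edgeR and 4 in DESeq2, 4 without the low-count filter, and 0 to 4 when each library was left out, with 4 without Alt replicate 2. For Alt versus Ref it was 0 in edgeR, 2 in DESeq2, 3 without the filter, and 0 to 3 with a library left out. At an unadjusted p the count ranged, with a library left out, from 3 to 5 (Alt against Ctr), from 2 to 3 (Alt against Ref), from 0 to 1 (Ref against Ctr) and from 3 to 5 (order of the groups). The share of all genes passing went from 8.14% without Alt replicate 1 to 33.2% without Alt replicate 2 against Ctr, and against Ref from 4.19% without Ref replicate 1 to 28.9% without Alt replicate 2. The GC correction gave 5 when Alt was set against Ref, where 16.6% of all genes passed and 11.5% were higher. It gave 0 when Ref was set against Ctr, where 3.32% passed. The length and GC correction gave 4 and 0, where 13.2% and 4.65% of all genes passed. The replicate block with the length correction gave 2 for the order, where 11.8% passed. The GC correction moved the median log2FC of all genes for Alt versus Ref from -0.04 to 0.10. Over all genes, the count at an adjusted p under 0.05 for Alt versus Ctr was 0 in edgeR, 1097 in DESeq2, 1484 without the filter and 3451 without Alt replicate 2, and for Alt versus Ref 1, 429, 850 and 2708.

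Directions turned as follows, and the cause was not tested. The log2FC of Grin1 for Alt versus Ref was 0.011 in DESeq2, 0.011 with RLE normalization, 0.38 with the GC correction, 0.13 with the length and GC correction, 0.058 without Ref replicate 1 and 0.027 without Alt replicate 1, and ranged from -0.11 to 0.058 with a library left out. Grin2d without Alt replicate 1 was at -0.22 against Ctr, -0.56 against Ref and -0.0066 for the order, and without Alt replicate 2 at 0.97, 0.64 and 0.46, the ends of its ranges. For Ref versus Ctr, Grin2a was at 0.016 with the replicate block, 0.013 without Ctr replicate 3 and from -0.34 to 0.18 with a library left out, the latter without Ref replicate 1. Grin2b ranged there from -0.093 without Ctr replicate 1 to 0.35. The ratio of Grin2a to Grin2b, Alt minus Ref, ranged from -0.31 to 0.023 with a library left out, the latter without Ref replicate 2. Without Alt replicate 1 the ratio of Grin2d to Grin1 was -0.51 for Alt minus Ctr and -0.58 for Alt minus Ref, and Grin3a to Grin1 was -0.13 for Alt minus Ctr, against 0.77, 0.70 and 0.79 without Alt replicate 2. The ratio of Grin2c and Grin2d to Grin2a and Grin2b, Alt minus Ctr, was 0.020 with the length correction. Of the subunit fold changes over these settings, 342 kept direction and side of the threshold, 15 lost and 8 gained the call, and 13 turned.

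With the replicate number as a block, 3 of 6 subunits passed an unadjusted p between Alt and Ctr, 3 with Ref in place of Ctr, 1 for Ref versus Ctr and 3 for the order, where 12.6%, 9.01%, 2.49% and 12.8% of all genes passed. Grin3a was lost between Alt and Ctr (edgeR unadjusted p = 0.0595). The deviations of same-numbered libraries from their group means had correlations across genes from -0.098 to 0.070. In a group of 2 these deviations mirror each other, so the check cannot decide whether same-numbered libraries share more than a number. Where a library left its group with 1, that library was assumed to vary like the other groups.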
